A study of Mus musculus with 16 samples.

Results

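Expression of 9 genes of the phosphoinositide 3-kinase (PI3K) system was followed through 6 gates of germinal centre and memory B cells. The genes were chosen by name, as 4 catalytic subunits (Pik3ca, Pik3cb, Pik3cd and Pik3cg), 2 regulatory subunits (Pik3r1 and Pik3r5), 1 adaptor (Pik3ap1) and 2 brakes (Pik3ip1 and Inpp5d). All 9 were found among 23234 named genes, and all 9 passed the filter on low values (at least 1 FPKM in at least 2 of 16 libraries), which 11266 genes passed in all.

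The donor cells came from C57BL/6 mice that carried 1 knock-in allele each of Bcl6-YFP, a reporter of the germinal centre factor Bcl6, and of B1-8hi, an antibody heavy chain that gives binding to the hapten NP. Naive donor B cells were moved into wild-type CD45.1+ mice, which were given NP-CGG in alum into the peritoneum. Spleen cells pooled from 9 recipients on day 10 were sorted for donor cells that bound NP, carried surface IgG1 and lacked CD138. All 6 groups therefore share both knock-in alleles, the transfer and the immunisation, and each library is a pool of animals. The LZ gate (n = 3) took light zone cells as CD38-, CD86hi and CXCR4lo. Fraction 2 (n = 2) and Fraction 3 (n = 3) were Bcl6-YFPhi light zone cells with high and low CD69, named in the labels as prone to recycling and as under selection. The last 3 gates were CD38+ and GL7-. Among them Fraction 5 (pro-memory, n = 3) was Bcl6-YFPhi and Efnb1hi, and Fraction 6 (pre-memory, n = 2) was Bcl6-YFPlo and Efnb1hi. Fraction 7 (mature memory, n = 3) was low for both (Bcl6-YFPlo, Efnb1lo).

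Class I PI3Ks phosphorylate the membrane lipid PIP2 to PIP3, which recruits the kinase Akt and other proteins. In B cells this follows from the antigen receptor and from the adaptor BCAP, and Akt then holds FOXO transcription factors out of the nucleus. Class IA enzymes pair p110α, p110β or p110δ with an SH2-domain regulatory subunit such as p85α, whereas the class IB enzyme pairs p110γ with p101 or p84 and is known for its response to G protein-coupled receptors. Lipid phosphatases such as SHIP-1 act on PIP3, and the membrane protein TrIP (Pik3ip1) binds p110 and lowers its activity.

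The deposited values were taken to be FPKM, because the submitters' processing notes name Cufflinks. FPKM are scaled to transcript length and library size and can be compared between genes. FPKM summed to between 416741 and 492578 in a library, 10133 to 10552 genes reached 1 FPKM, and relative depth lay between 0.921 and 1.21 of the first LZ library. The labels do not say whether libraries of a gate came from separate sorts or pools, so the p-values rest on the spread among the libraries at hand, which may be technical only. Bulk values cannot tell fewer cells of a type from less RNA per cell. Of the genes of the sort, Bcl6 averaged 164.8 FPKM in LZ, 146 FPKM in Fraction 2, 187 FPKM in Fraction 3 and 189 FPKM in Fraction 5. It averaged 72.8 FPKM in Fraction 6 and 18.0 FPKM in Fraction 7, which were both sorted as Bcl6-YFPlo. Cd69 had 13.4 and 13.3 FPKM in Fraction 2, the CD69-high gate, against 11.5, 9.49 and 14.4 FPKM in Fraction 3, so those groups overlapped. Efnb1 had 67.2, 57.9 and 67.5 FPKM in Fraction 5, 32.4 and 27.5 FPKM in Fraction 6, and 2.14, 2.37 and 1.93 FPKM in Fraction 7, where Fractions 5 and 6 were both sorted as Efnb1hi. All 6 of the B cell markers listed were detected in every gate. No pair of libraries was identical, and the highest correlation between any of them was 0.966.

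Across the 6 gates 8 of the 9 genes passed the moderated F test, where 69.7% of all tested genes did. Pik3ca was the gene that did not pass (adjusted p = 0.185). The genes are given in 3 groups by level, of which the last overlaps the one before it. Pik3ap1, Pik3cd and Inpp5d stood at 58.3 to 185 FPKM in all 16 libraries, and Pik3ca, Pik3cg and Pik3r1 at 5.93 to 31.7 FPKM. Pik3cb stayed under 1.91 FPKM, and Pik3r5 and Pik3ip1 ran from under 1 FPKM up to 26.8 FPKM and 8.63 FPKM. The ratio of the highest to the lowest gate mean was 30.5 for Pik3r5, 11.4 for Pik3ip1, 4.10 for Pik3cg and 3.28 for Pik3cb, and it was 1.21 for Pik3ca and 1.38 for Inpp5d.

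**Figure D1:**
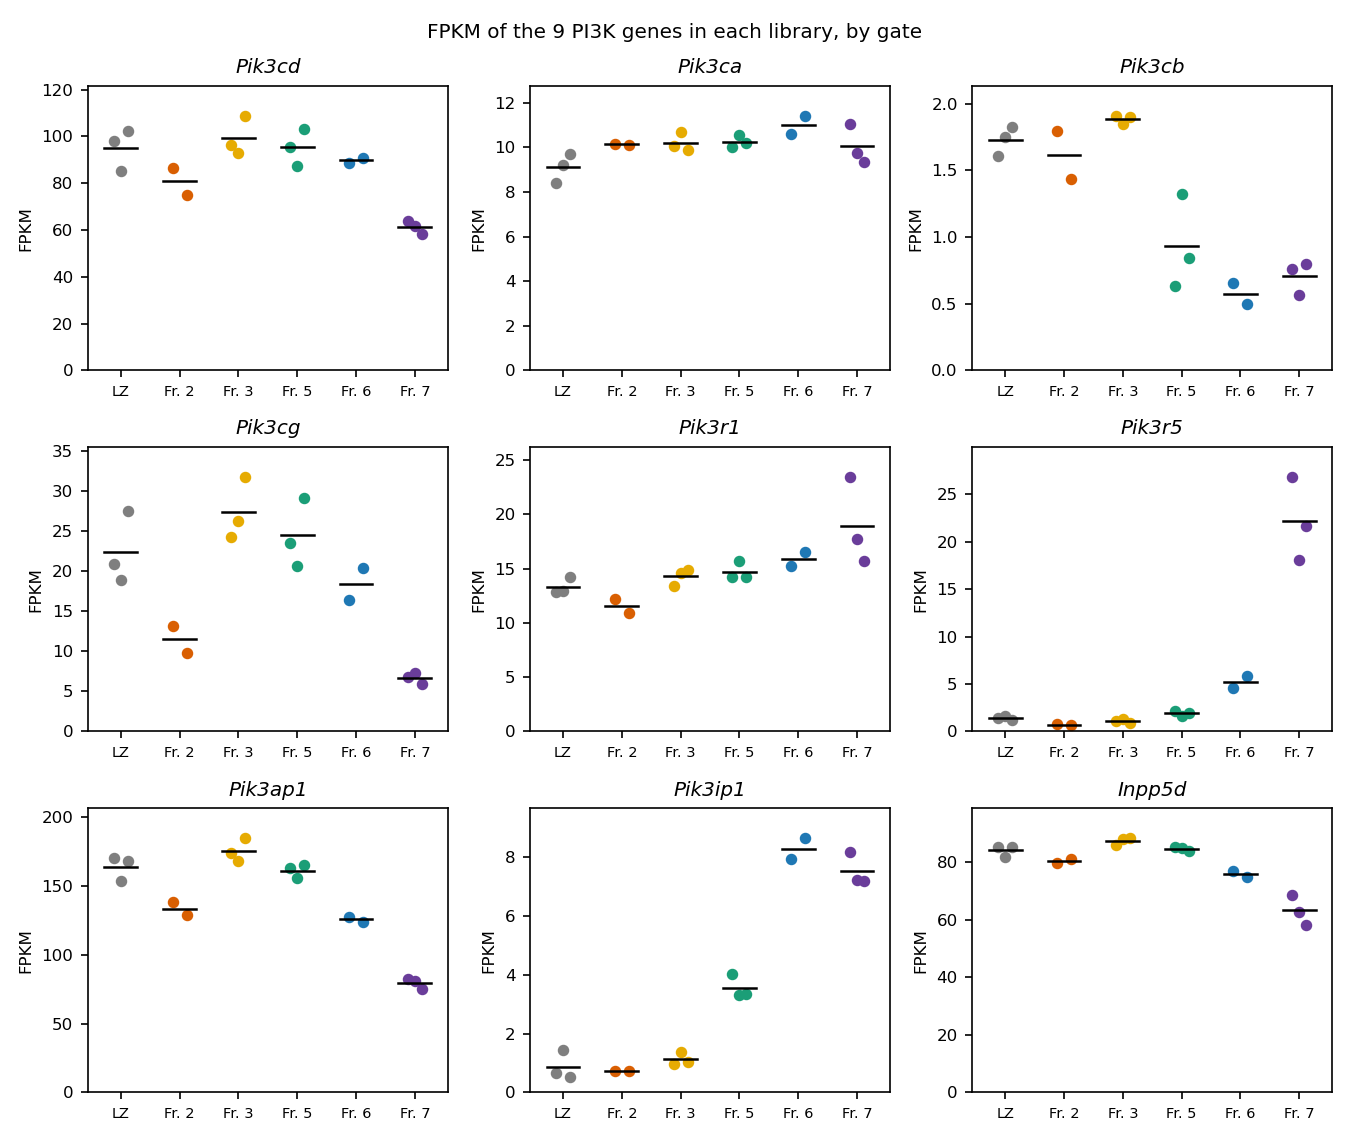
FPKM of the 9 genes (1 panel each, linear axis from 0) in the 6 gates, with LZ first and the fractions by number. There is 1 point per library and a line at the gate mean. Pik3r5 and Pik3ip1 are highest in Fractions 6 and 7, Pik3cd, Pik3cg, Pik3ap1 and Inpp5d are lowest in Fraction 7, and Pik3ca stays between 8.42 and 11.4 FPKM.

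Pik3cd encodes p110δ, the catalytic subunit on which B cell antigen receptor signalling is known to rely most. Its transcript was the most abundant of the 4 catalytic genes in every library. Pik3cd had 97.9, 85.3 and 102 FPKM in LZ, 86.6 and 74.96 FPKM in Fraction 2, 96.4, 93.01 and 109 FPKM in Fraction 3, 95.5, 87.5 and 103 FPKM in Fraction 5, 88.5 and 90.9 FPKM in Fraction 6, and 63.9, 61.8 and 58.5 FPKM in Fraction 7. The 3 Fraction 7 libraries lay below all 13 others. Pik3cd was lower in Fraction 7 than in Fraction 6 by a log2 change of -0.54 ± 0.10 (SE, adjusted p = 0.0014) and than in LZ by -0.62 ± 0.09 (adjusted p = 3.1e-05). Under quantile normalization the Fraction 7 against LZ change was -0.20 and no longer passed (adjusted p = 0.0529). From the highest mean down, the order was Fraction 3, Fraction 5, LZ, Fraction 6, Fraction 2 and Fraction 7. The first 4 overlapped in turn, and Fraction 7 stood clear of every gate above it. Fraction 2 stood clear of Fraction 6 but overlapped LZ, with 86.6 FPKM in library 1 against 85.3 FPKM in LZ library 2.

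Pik3ca encodes p110α, another class IA catalytic subunit. Pik3ca had 11.0, 9.74 and 9.34 FPKM in Fraction 7, against 8.42, 9.22 and 9.68 FPKM in LZ. These groups overlapped, and the difference of 0.13 on the log2 scale did not pass (95% interval -0.04 to 0.29, adjusted p = 0.161). Median-ratio scaling gave 0.26 (adjusted p = 0.0034) and quantile normalization 0.24 (adjusted p = 0.0063) for the same comparison, both past the threshold. Fraction 6 had the highest mean, 11.0 ± 0.543 FPKM (SD, n = 2), and LZ the lowest, 9.10 ± 0.641 FPKM (SD, n = 3). The 4 gates between them, Fractions 5, 3, 2 and 7, overlapped one another in turn.

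Pik3cb encodes p110β and was the lowest of the 4 catalytic genes. Pik3cb had 1.61, 1.75 and 1.82 FPKM in LZ, 1.80 and 1.44 FPKM in Fraction 2, and 1.90, 1.85 and 1.90 FPKM in Fraction 3. In the CD38+ gates it had 0.637, 1.32 and 0.845 FPKM in Fraction 5, 0.652 and 0.498 FPKM in Fraction 6, and 0.762, 0.569 and 0.795 FPKM in Fraction 7. Every library of the 3 light zone gates was above every library of the 3 CD38+ gates. Pik3cb reached 1 FPKM in 9 libraries, of which only Fraction 5 library 2 was CD38+. It thus passed the filter through the light zone gates, where it was high, and its tests carry that limit. The log2 change was -0.59 ± 0.13 in Fraction 5 against Fraction 3 (adjusted p = 0.0039) and -0.68 ± 0.13 in Fraction 7 against LZ (adjusted p = 0.00045). At this level the added 1 FPKM compresses the change: with a pseudocount of 0.1 they were -0.99 and -1.19. In Fraction 5 against Fraction 2 the change of -0.45 (adjusted p = 0.0227) did not pass without Fraction 2 library 1 (adjusted p = 0.167), Fraction 5 library 1 (0.0903) or Fraction 5 library 3 (0.0597), or with the pair of gates fitted alone (0.111).

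The make-up of the catalytic transcripts was read as each gene's share of the summed FPKM of the 4 genes. Pik3cd held 74.2% ± 1.77 in LZ, 77.7% ± 0.213 in Fraction 2, 71.5% ± 1.03 in Fraction 3, 72.8% ± 0.84 in Fraction 5, 74.9% ± 1.67 in Fraction 6 and 77.9% ± 0.535 in Fraction 7 (SD, n = 2 or 3). Pik3cg held 17.4%, 11.0%, 19.7%, 18.6%, 15.4% and 8.48% in the same gates, so its share was lowest in Fractions 7 and 2. Pik3ca held 12.7% ± 0.578 in Fraction 7 and 7.12% ± 0.773 in LZ, on FPKM that did not pass the test, while the sum of the 4 genes was 74.5 to 82.6 FPKM in Fraction 7 and 115 to 141 FPKM in LZ. The share of Pik3cb never exceeded 1.61%. These shares were not tested.

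**Figure D2:**
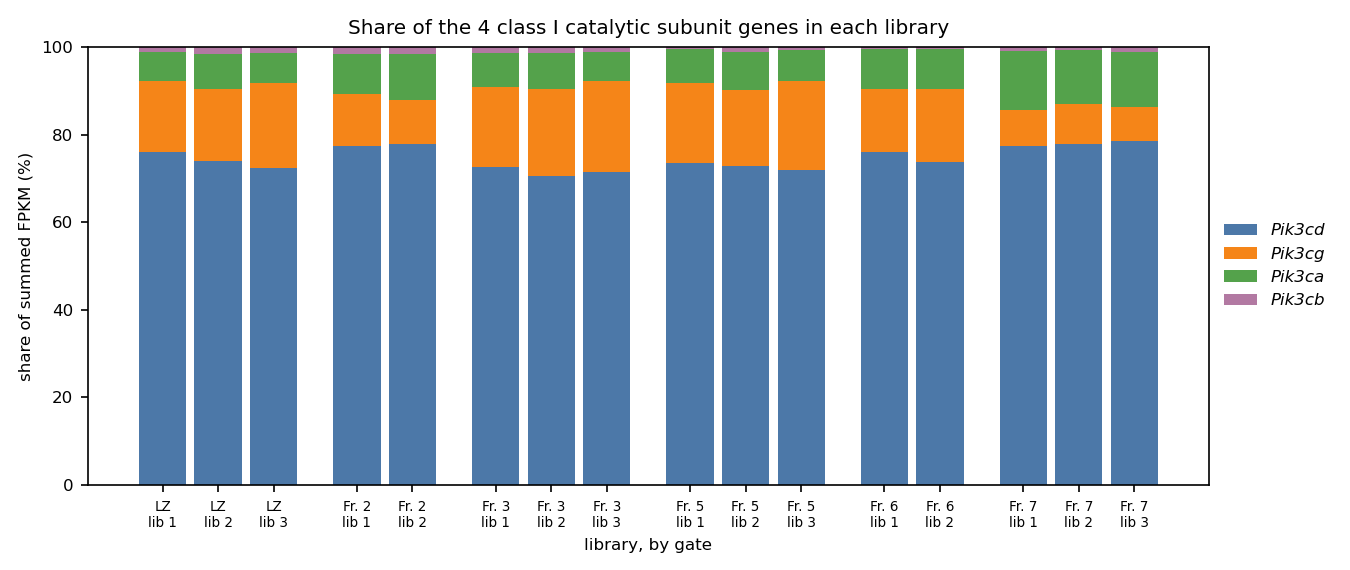
Share of the summed FPKM of Pik3ca, Pik3cb, Pik3cd and Pik3cg (percent, axis from 0), stacked for each of the 16 libraries. LZ comes first and the fractions follow by number. Pik3cd holds the most in every bar, at gate means of 71.5% to 77.9%, and Pik3cg is smallest in Fraction 2 (mean 11.0%) and Fraction 7 (mean 8.48%).

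Pik3r1 encodes p85α and its shorter forms, which stabilise class IA catalytic subunits and dock them on phosphotyrosines. Pik3r1 had 23.4, 17.8 and 15.7 FPKM in Fraction 7, against 12.8, 12.9 and 14.2 FPKM in LZ. The groups did not overlap, and Pik3r1 was higher in Fraction 7 by 0.46 ± 0.11 on the log2 scale (adjusted p = 0.0030). Fraction 7 library 1 was the highest of all, and without it the change was 0.31 (adjusted p = 0.0080). Pik3r1 had 12.2 and 10.9 FPKM in Fraction 2, 13.4, 14.6 and 14.8 FPKM in Fraction 3, 14.2, 15.7 and 14.3 FPKM in Fraction 5, and 15.3 and 16.6 FPKM in Fraction 6. The order of its means was Fraction 7, Fraction 6, Fraction 5, Fraction 3, LZ and Fraction 2, in which the first 5 overlapped in turn and Fraction 2 stood clear below LZ.

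Pik3cg encodes p110γ, the class IB catalytic subunit. Pik3cg had 20.9, 18.9 and 27.5 FPKM in LZ, 13.2 and 9.81 FPKM in Fraction 2, 24.3, 26.2 and 31.7 FPKM in Fraction 3, 23.6, 20.7 and 29.2 FPKM in Fraction 5, 16.5 and 20.5 FPKM in Fraction 6, and 6.86, 7.28 and 5.93 FPKM in Fraction 7. Fraction 2 and Fraction 7 each stood below all other gates, and Fraction 7 stood below Fraction 2. Pik3cg was lower in Fraction 2 than in Fraction 3 by a log2 change of -1.19 ± 0.18 (adjusted p = 0.0017), and higher in Fraction 5 than in Fraction 2 by 1.03 ± 0.18 (adjusted p = 0.00048). It was lower in Fraction 7 than in Fraction 6 by -1.34 ± 0.18 (adjusted p = 0.00015) and than in LZ by -1.60 ± 0.16 (adjusted p = 1.4e-06). The other 4 gates, in the order Fraction 3, Fraction 5, LZ and Fraction 6, had means between 18.5 and 27.4 FPKM and overlapped in turn.

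Pik3r5 encodes p101, a regulatory subunit that joins p110γ to Gβγ and is known mainly from myeloid cells. Pik3r5 had 1.40, 1.68 and 1.22 FPKM in LZ, 0.741 and 0.713 FPKM in Fraction 2, and 1.06, 1.28 and 0.845 FPKM in Fraction 3. In the CD38+ gates it had 2.13, 1.65 and 1.94 FPKM in Fraction 5, 4.62 and 5.87 FPKM in Fraction 6, and 26.8, 18.1 and 21.6 FPKM in Fraction 7. Fractions 7 and 6 stood clear of each other and of every other gate, Fraction 5 overlapped LZ, and LZ overlapped Fraction 3. Pik3r5 was higher in Fraction 6 than in Fraction 5 (log2 change 1.10 ± 0.16, adjusted p = 0.00026), in Fraction 7 than in Fraction 6 (1.88 ± 0.16, adjusted p = 2.8e-06) and in Fraction 7 than in LZ (3.24 ± 0.14, adjusted p = 3.5e-10). The gate means differed 4.22-fold between Fractions 7 and 6 and 15.4-fold between Fraction 7 and LZ. Its change of 0.50 in Fraction 5 against Fraction 3 (adjusted p = 0.0178) did not pass without Fraction 3 library 3 (0.0712) or Fraction 5 library 1 (0.0715).

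Per library, the ratio of Pik3r5 to Pik3cg FPKM lay between 0.0266 and 0.0902 for the 11 libraries from LZ and Fractions 2, 3 and 5. It was 0.280 and 0.287 in Fraction 6 and 3.90, 2.48 and 3.65 in Fraction 7. The regulatory transcript thus exceeded the catalytic one in all 3 Fraction 7 libraries and in none of the other 13. Pik3r6, which encodes p84, the other regulatory subunit of p110γ, is the next protein-coding gene beside Pik3r5 on its chromosome. Pik3r6 was at most 0.278 FPKM in LZ and Fractions 2, 3 and 5 and listed at 0 in 5 of their libraries. It had 8.90, 8.24 and 10.7 FPKM in Fraction 7, against 0.272 and 0.326 FPKM in Fraction 6. Pik3r6 passed the filter through Fraction 7 alone, so no test of it is given.

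**Figure D3:**
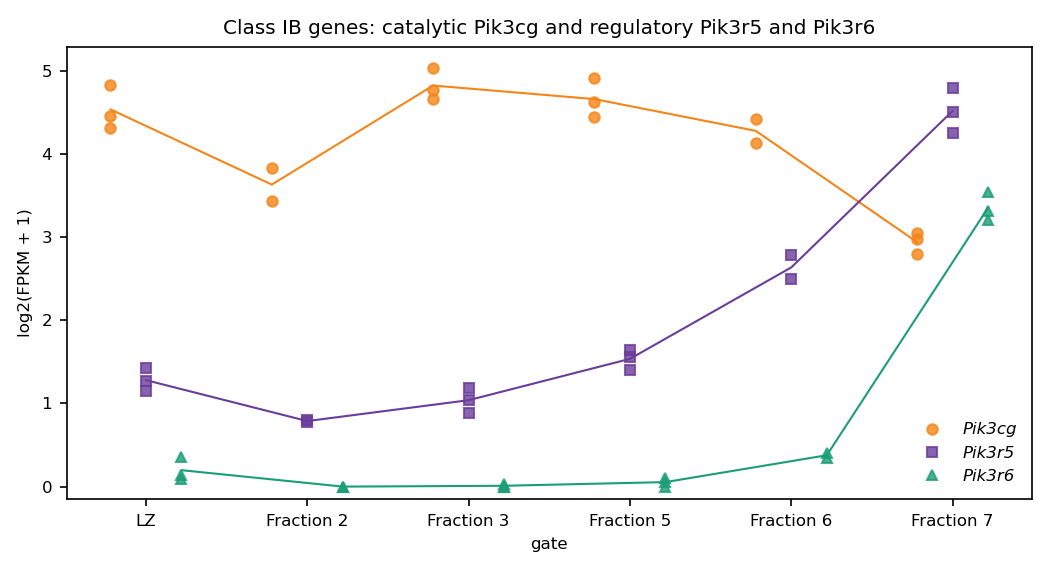
Pik3cg, Pik3r5 and Pik3r6 as log2(FPKM + 1) in the 6 gates, with LZ first and the fractions by number. There is 1 point per library, and lines join the gate means but do not stand for a course in time. Pik3cg is lowest in Fraction 7, where Pik3r5 (18.1 to 26.8 FPKM) and Pik3r6 (8.24 to 10.7 FPKM) are highest.

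Because p101 is known from myeloid cells, markers of other cells were read beside it. Of 9 myeloid markers 6 reached 1 FPKM in some Fraction 7 library and 7 in some Fraction 6 library. Their sum was 4.39 to 22.1 FPKM in LZ, 1.65 and 2.01 FPKM in Fraction 2, 1.18 to 30.3 FPKM in Fraction 3, 1.39 to 11.6 FPKM in Fraction 5, 21.6 and 6.52 FPKM in Fraction 6, and 18.7, 17.5 and 47.3 FPKM in Fraction 7. By gate mean, Itgam was at 11.2 FPKM in Fraction 7 and 1.09 FPKM in Fraction 6, against at most 0.222 FPKM in another gate. Emr1 was at 1.62 and 1.23 FPKM in Fractions 7 and 6, against at most 0.195 FPKM, and Csf1r at 0.317 and 0.241 FPKM, against at most 0.0830 FPKM. Lyz2 was at 2.15 and 3.39 FPKM, against at most 1.22 FPKM, and Csf3r at 1.59 and 1.35 FPKM, against at most 1.07 FPKM. These 5 markers thus had their 2 highest gate means in Fractions 6 and 7, where Pik3r5 was highest too. By library, Itgam, Emr1 and Csf3r in both gates lay above every other gate. Csf1r had 0 and 0.482 FPKM in Fraction 6, so it overlapped other gates there. Lyz2 had 5.70 and 1.08 FPKM in Fraction 6 and 1.08 to 3.34 FPKM in Fraction 7, and overlapped LZ (up to 2.34 FPKM) and Fraction 3 (up to 3.06 FPKM). S100a8 was at 5.88 and 2.79 FPKM in Fractions 7 and 6 and up to 4.57 FPKM elsewhere, and S100a9 at 5.01 and 1.54 FPKM and up to 4.88 FPKM elsewhere. Mpo was at 0.0727 and 2.43 FPKM, the latter from libraries of 0 and 4.86 FPKM, and Cd14 was listed at 0 in every library outside LZ. Plasma cell markers summed to 105, 411 and 406 FPKM in Fraction 7, against 67.6 and 79.4 FPKM in Fraction 6, the lowest gate. The sum was 168 to 203 FPKM in LZ, 165 and 167 FPKM in Fraction 2, 198 to 218 FPKM in Fraction 3 and 134 to 156 FPKM in Fraction 5. Fraction 7 library 1 thus lay below all of these, and libraries 2 and 3 above them. Igj had 46.9, 296 and 292 FPKM in Fraction 7, against 96.4 to 137 FPKM in LZ. Sdc1, which encodes the CD138 that was sorted against, had 0.502, 4.44 and 4.51 FPKM in Fraction 7. In the same libraries Pik3r5 had 26.8, 18.1 and 21.6 FPKM. Without Fraction 7 libraries 2 and 3, a choice made after seeing the data that leaves library 1 alone, the log2 change of Pik3r5 against LZ was 3.52. Itgam had 12.8 FPKM in that library. The part of other cells in these results was not tested.

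Promoter windows, the 250 bases before the transcript start, were read by gene symbol from the RefSeq table for GRCm38.p6, to set sequence beside the genes whose levels differed most between gates. The coordinates are of that build and not of mm9. All 9 genes had a window, 13 in all of 32851. The windows of Pik3r5 and Pik3ip1, both highest in Fractions 6 and 7, and a window of Pik3cg, lower in Fractions 2 and 7, are printed. They run 5′ to 3′ on the gene's strand, with motif matches in capitals.
Pik3r5, chr11:68431875-68432124, plus strand: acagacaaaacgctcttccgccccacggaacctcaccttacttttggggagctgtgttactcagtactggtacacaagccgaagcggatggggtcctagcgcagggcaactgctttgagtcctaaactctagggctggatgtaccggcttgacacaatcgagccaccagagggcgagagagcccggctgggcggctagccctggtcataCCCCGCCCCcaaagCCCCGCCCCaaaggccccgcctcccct
Pik3ip1, chr11:3330481-3330730, plus strand: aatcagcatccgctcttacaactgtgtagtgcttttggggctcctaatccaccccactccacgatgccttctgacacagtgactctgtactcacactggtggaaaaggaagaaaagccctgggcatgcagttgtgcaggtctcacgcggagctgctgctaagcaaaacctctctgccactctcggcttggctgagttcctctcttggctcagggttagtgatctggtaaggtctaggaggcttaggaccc
Pik3cg, chr12:32208471-32208720, minus strand: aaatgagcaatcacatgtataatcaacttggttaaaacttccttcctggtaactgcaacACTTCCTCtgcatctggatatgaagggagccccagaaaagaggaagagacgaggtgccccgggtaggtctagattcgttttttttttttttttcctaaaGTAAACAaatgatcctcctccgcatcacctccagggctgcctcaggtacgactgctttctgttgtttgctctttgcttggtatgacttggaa
Searched on both strands were GTAAACA (FOXO), CACGTG (Myc E-box), GAGGAAGT (PU.1), CCGGAAG (ETS), CCACACCC (KLF), ATGCAAAT (octamer), GGGGCGGGG (GC box), CAGGTG (E2A E-box), GGGACTTTC (NF-kB), TCACNCCAC (sterol element), TGACGTCA (CRE) and TGAGTCA (AP-1), where PU.1 and ETS share the letters GGAAG. The capitals mark 2 GC box words in the Pik3r5 window, and in the printed Pik3cg window 1 PU.1 word and 1 FOXO word. A further Pik3cg window, chr12:32208660-32208909 on the minus strand, held 0 matches and is not printed. The FOXO word is in 3.17% of all windows and in 1 of the 13. The PU.1 word is in 2.44% and in 2 of the 13 (of Pik3cg and Inpp5d), and the GC box in 10.4% and in 5 of the 13. The Pik3ip1 window holds none of these letters. The Myc E-box word is in 6.02% of all windows, the ETS word in 6.91%, the E2A word in 17.2% and the AP-1 word in 4.46%, and they were found in windows of Pik3ap1 (Myc E-box and E2A), Pik3ca (ETS and AP-1) and Pik3cd (E2A). The KLF, octamer, NF-kB, sterol and CRE words, in 3.20%, 1.60%, 0.289%, 1.05% and 1.55% of windows, were found in none of the 13. A match is a run of letters and not a binding site.

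Pik3ap1 encodes BCAP, a cytoplasmic adaptor whose phosphotyrosines bind p85 and bring PI3K to the antigen receptor. It was the most abundant of the 9 transcripts in every library. Pik3ap1 had 171, 154 and 168 FPKM in LZ, 138 and 129 FPKM in Fraction 2, 174, 168 and 185 FPKM in Fraction 3, 163, 156 and 165 FPKM in Fraction 5, 128 and 124 FPKM in Fraction 6, and 82.6, 81.3 and 75.02 FPKM in Fraction 7. Fractions 2, 6 and 7 stood in that order below the other gates, each clear of the next, and Fraction 3, LZ and Fraction 5 overlapped in turn. Pik3ap1 was lower in Fraction 2 than in Fraction 3 by a log2 change of -0.39 ± 0.07 (adjusted p = 0.0029), in Fraction 6 than in Fraction 5 by -0.36 (adjusted p = 0.0025), and in Fraction 7 than in Fraction 6 by -0.65 ± 0.07 (adjusted p = 1.7e-05). Against LZ the change in Fraction 7 was -1.03 ± 0.06 (adjusted p = 5.9e-09), and under quantile normalization it was -0.67. In Fraction 5 it was higher than in Fraction 2 by 0.27 (adjusted p = 0.0060), a call that did not pass without Fraction 2 library 2 (0.22, adjusted p = 0.0744) and that was 0.50 under quantile normalization.

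Pik3ip1 encodes TrIP, a transmembrane protein that binds p110 and restrains class I PI3K. Pik3ip1 had 0.652, 1.44 and 0.511 FPKM in LZ, 0.734 and 0.715 FPKM in Fraction 2, and 0.961, 1.38 and 1.02 FPKM in Fraction 3. It had 4.04, 3.31 and 3.34 FPKM in Fraction 5, 7.93 and 8.63 FPKM in Fraction 6, and 8.18, 7.22 and 7.19 FPKM in Fraction 7. All 8 CD38+ libraries were above all 8 light zone libraries, and Fraction 5 lay between the light zone and Fractions 6 and 7. Pik3ip1 was higher in Fraction 5 than in Fraction 3 by a log2 change of 1.11 ± 0.15 (adjusted p = 0.00017) and than in Fraction 2 by 1.40 (adjusted p = 2.5e-05), and higher in Fraction 6 than in Fraction 5 by 1.03 ± 0.17 (adjusted p = 0.00087). Fraction 7 and Fraction 6 overlapped, with a change of -0.12 ± 0.17 (adjusted p = 0.682). The mean in Fraction 7 was 8.68-fold that in LZ (2.22 ± 0.15 on the log2 scale, adjusted p = 2.9e-08).

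Pik3r5 and Pik3ip1 were both called higher in Fraction 5 against Fraction 3 and in Fraction 6 against Fraction 5. Between Fractions 7 and 6 the log2 change was 1.88 for Pik3r5 and -0.12 for Pik3ip1, and the difference between the genes was not tested.

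Inpp5d encodes SHIP-1, which removes the 5-phosphate from PIP3 and is recruited to inhibitory receptors. Inpp5d had 85.1, 81.7 and 85.3 FPKM in LZ, 79.6 and 80.95 FPKM in Fraction 2, 86.01, 88.1 and 88.1 FPKM in Fraction 3, 85.04, 84.8 and 83.7 FPKM in Fraction 5, 76.7 and 74.7 FPKM in Fraction 6, and 68.6, 62.6 and 58.3 FPKM in Fraction 7. Fractions 6 and 7 were below all other gates, and Fraction 7 was below Fraction 6. The log2 change was -0.26 ± 0.06 in Fraction 7 against Fraction 6 (adjusted p = 0.0099) and -0.41 ± 0.06 in Fraction 7 against LZ (adjusted p = 2.7e-05), but quantile normalization gave -0.14 (adjusted p = 0.0719) and 0.02 (adjusted p = 0.762). Median-ratio scaling gave -0.26 for Fraction 7 against LZ. The Fraction 7 against Fraction 6 call was also lost without Fraction 6 library 1 (adjusted p = 0.0762), with the pair of gates fitted alone (0.148), and without Fraction 7 libraries 2 and 3 (-0.14, adjusted p = 0.176).

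Counted by comparison, the calls on the 9 genes stand beside the share of all tested genes that passed. In Fraction 2 against Fraction 3, 0 of 9 were higher and 2 were lower (Pik3cg and Pik3ap1), and 15.6% of all genes passed, 9.17% higher and 6.45% lower. The libraries of 8 of the 9 genes did not overlap, all lower in Fraction 2, where 48.1% of all genes did not overlap. The median change of the 9 was -0.29 and that of all genes 0.04. Pik3cd missed the threshold at -0.29 (adjusted p = 0.0591). Of all calls 1033 were higher and 727 lower, against 866 and 1041 under quantile normalization and 1014 and 1035 under median-ratio scaling, which called 4 and 5 of the 9 genes, all lower.

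In Fraction 5 against Fraction 3, 2 of 9 were higher (Pik3ip1 and Pik3r5) and 1 lower (Pik3cb), where 29.5% of all genes passed, 9.99% higher and 19.5% lower. The libraries of 5 of the 9 did not overlap, where 44.1% of all genes did not. The medians were -0.05 for the 9 and -0.03 for all genes. The changes of Pik3cd (-0.06), Pik3ap1 (-0.12) and Inpp5d (-0.05) did not pass and turned to 0.14, 0.07 and 0.16 under quantile normalization, where that of Inpp5d passed (adjusted p = 0.0241). All calls split into 1125 higher and 2197 lower, against 1675 and 1664 under quantile normalization, which called 3 of the 9 higher and 1 lower. In Fraction 5 against Fraction 2, 4 of 9 were higher (Pik3ip1, Pik3cg, Pik3r5 and Pik3ap1) and 1 lower (Pik3cb), where 43.7% of all genes passed, 16.6% higher and 27.1% lower. For 8 of the 9 the libraries did not overlap, where 62.5% of all genes did not. Pik3r1 (0.33, adjusted p = 0.0515) and Pik3cd (0.24, adjusted p = 0.0663) did not pass, and both did under quantile and median-ratio scaling, where 7 of 9 were higher. All calls split into 1872 higher and 3056 lower, against 2713 and 2479 under quantile normalization. Both comparisons use the same Fraction 5 libraries.

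In Fraction 6 against Fraction 5, 2 of 9 were higher (Pik3r5 and Pik3ip1) and 1 lower (Pik3ap1), where 17.5% of all genes passed, 7.07% higher and 10.4% lower. The libraries of 6 of the 9 did not overlap, where 47.9% of all genes did not. Median-ratio scaling called 2 higher and 2 lower. In Fraction 7 against Fraction 6, 1 of 9 was higher (Pik3r5) and 4 were lower (Pik3cg, Pik3ap1, Pik3cd and Inpp5d), where 21.2% of all genes passed, 7.37% higher and 13.9% lower. The libraries of 5 of the 9 did not overlap, where 46.4% of all genes did not. All calls there split into 830 higher and 1563 lower, against 1205 and 1470 under quantile normalization, which called 2 of the 9 higher and 3 lower, and 1165 and 1316 under median-ratio scaling. In Fraction 7 against LZ, 3 of 9 were higher (Pik3r5, Pik3ip1 and Pik3r1) and 5 lower (Pik3cg, Pik3ap1, Pik3cb, Pik3cd and Inpp5d), where 62.1% of all genes passed, 24.1% higher and 38% lower. For 8 of the 9 the libraries did not overlap, where 64.4% of all genes did not. All calls split into 2718 higher and 4279 lower, against 3464 and 3467 under quantile normalization and 3589 and 3642 under median-ratio scaling. Of the 9 genes quantile normalization called 4 higher and 3 lower, and median-ratio scaling 4 higher and 5 lower. The median of all genes in that comparison was -0.10, against 0.02 under quantile normalization and 0.02 under median-ratio scaling, and relative to -0.10 the changes were 3.34 for Pik3r5, 2.32 for Pik3ip1, 0.56 for Pik3r1, -1.49 for Pik3cg, -0.93 for Pik3ap1, -0.58 for Pik3cb, -0.52 for Pik3cd and -0.31 for Inpp5d.

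**Figure D4:**
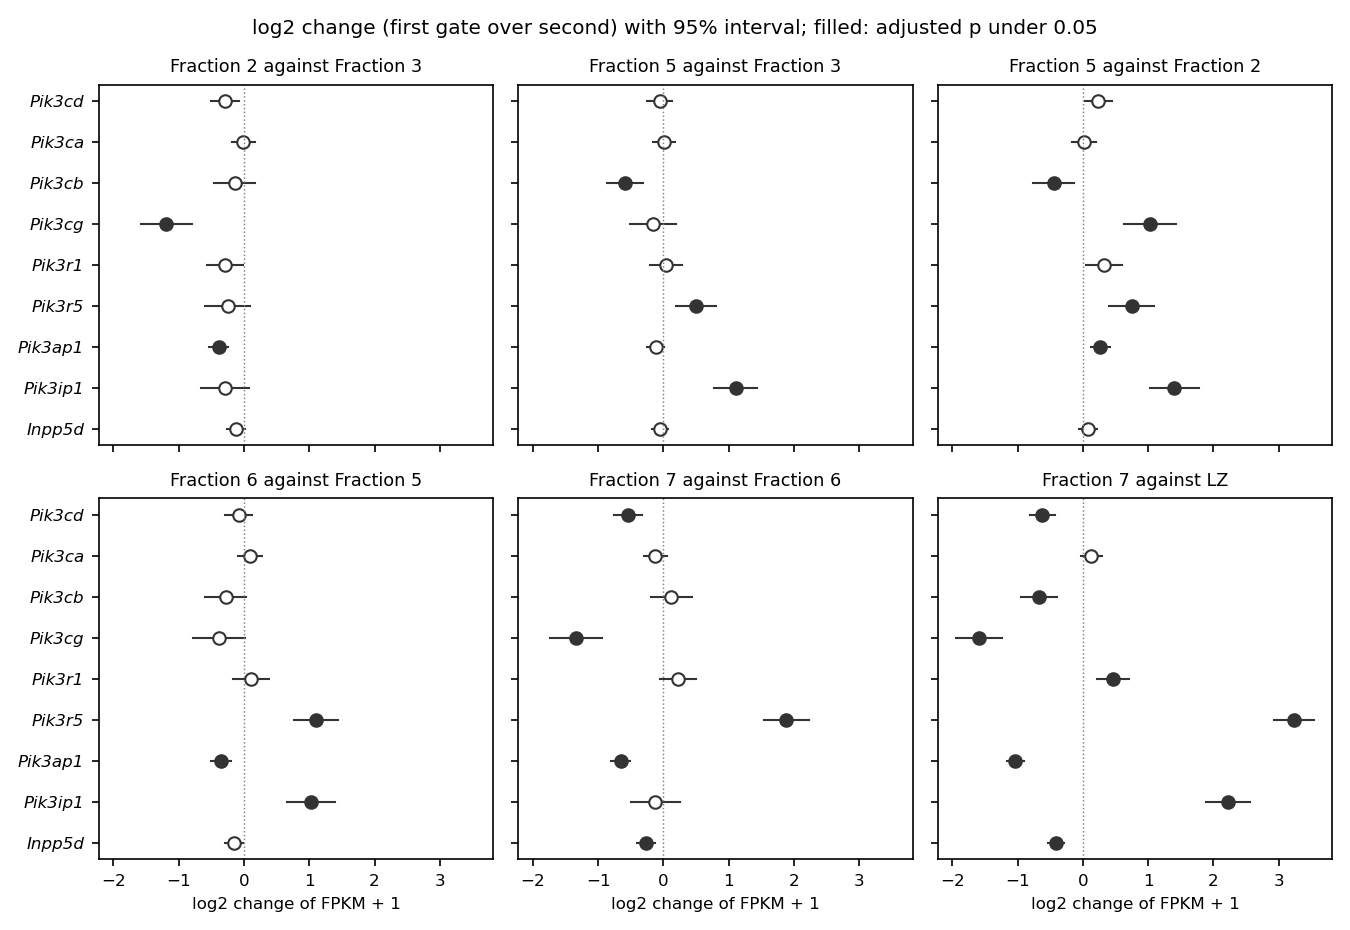
Log2 change of the 9 genes in the 6 comparisons, on log2(FPKM + 1), with 95% intervals and a line at 0. Filled points passed an adjusted p of 0.05, and the largest changes are those of Pik3r5 (3.24) and Pik3ip1 (2.22) in Fraction 7 against LZ.

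Other genes of the pathway were read from 6 lists, of which the 17 tested other phosphoinositide kinases come first. In Fraction 2 against Fraction 3, 0 were higher and 5 lower, among them the class II kinase Pik3c2b (-0.45) and the class III partner Pik3r4 (-0.39), with a list median of -0.05 and 0.04 for all genes, of which 9.17% were higher and 6.45% lower. In Fraction 5 against Fraction 3, 0 passed in either direction, where 29.5% of all genes did. Between Fraction 7 and LZ, 6 were higher in Fraction 7 and 4 lower, where 24.1% and 38% of all genes were. The 6 include Pik3r6, and the list also holds Pip5k1b (at most 0.326 FPKM outside Fraction 7). Both passed the filter through Fraction 7 alone, so the count of higher genes is partly set by the filter. Pikfyve, which makes PI(3,5)P2, was higher at 0.78, and Pi4kb, a kinase of the Golgi, was lower at -0.68. Pik3r3, which encodes the class IA subunit p55γ, had 0.270 to 0.578 FPKM in Fraction 7, against 1.34 and 1.62 FPKM in Fraction 6. The log2 change was -0.81. Pik3r3 was under 1 FPKM in every library of Fraction 7 and LZ and passed the filter through the other gates, where it was higher, so no test of it is given.

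Among 11 tested phosphoinositide phosphatases beside Inpp5d, 0 were higher and 3 lower in Fraction 2 against Fraction 3, where 9.17% of all genes were higher and 6.45% lower. In Fraction 7 against LZ 5 were higher and 4 lower, where 24.1% of all genes were higher and 38% lower. Inppl1, the SHIP-2 gene, was higher in Fraction 7 than in Fraction 6, at 6.97 ± 0.31 FPKM (SD, n = 3) and 2.57 FPKM on average, a log2 change of 1.16. Inpp4a, which acts on PI(3,4)P2, was lower in Fraction 2 than in Fraction 3 (-0.62) and in Fraction 7 than in Fraction 6 (-0.56).

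Of 23 tested genes that act upstream, 1 was higher and 8 lower in Fraction 2 against Fraction 3, where 9.17% of all genes were higher and 6.45% lower. Between Fractions 5 and 2, 12 were higher in Fraction 5 and 1 lower, beside 16.6% and 27.1% of all genes. In Fraction 7 against Fraction 6, 1 was higher and 11 were lower, beside 7.37% and 13.9% of all genes, with a list median of -0.27 and -0.05 for all genes. Tnfrsf13c, the BAFF receptor, was at 161 ± 13.2 FPKM in Fraction 7 (SD, n = 3) and 308 FPKM on average in Fraction 6, a log2 change of -0.93. Of 13 inhibitory partners, 6 were lower and 0 higher in Fraction 2 against Fraction 3, beside 6.45% lower and 9.17% higher of all genes, with Dok3, an adaptor that recruits SHIP-1, at -0.86. In Fraction 5 against Fraction 3, 2 were higher, the inhibitory receptors Cd72 (1.41) and Cd22 (0.41), and 0 lower, where 9.99% of all genes were higher and 19.5% lower. Of the 13, 0 were higher and 9 lower in Fraction 7 against Fraction 6, where 7.37% of all genes were higher and 13.9% lower.

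Of 24 tested genes of the Akt axis, 0 passed in Fraction 2 against Fraction 3, where 15.6% of all genes did. In Fraction 7 against LZ 5 were higher and 10 lower, a share near the 62.1% of all genes that passed (24.1% higher and 38% lower). Akt1 was lower in Fraction 7 than in LZ (-1.04). Sgk1, a kinase close to Akt that is activated by PDK1, had 13.3, 7.51 and 12.7 FPKM in Fraction 7, against 0.943 and 1.87 FPKM in Fraction 6. The groups did not overlap, and no test is given since Sgk1 was under 1 FPKM in all libraries of LZ and Fractions 2, 3 and 5. Sgk1 is still counted among the 5 genes higher in Fraction 7 than in LZ. Foxo1, the FOXO factor known best from B cells, was lower in Fraction 7 than in Fraction 6 (-0.90). Of 13 tested genes linked to FOXO factors, which include the sort gene Bcl6, 8 were higher and 0 lower in Fraction 5 against Fraction 3, beside 9.99% and 19.5% of all genes, with a list median of 0.69 and -0.03 for all genes. They included Sesn1, a stress-induced regulator of mTORC1 (0.90), and the cell cycle inhibitor gene Cdkn1b (1.00). Between Fraction 7 and LZ, 7 were higher in Fraction 7 and 2 lower, beside 24.1% and 38% of all genes, with S1pr1, the receptor that guides exit from lymphoid tissue, at 4.60.

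**Figure D5:**
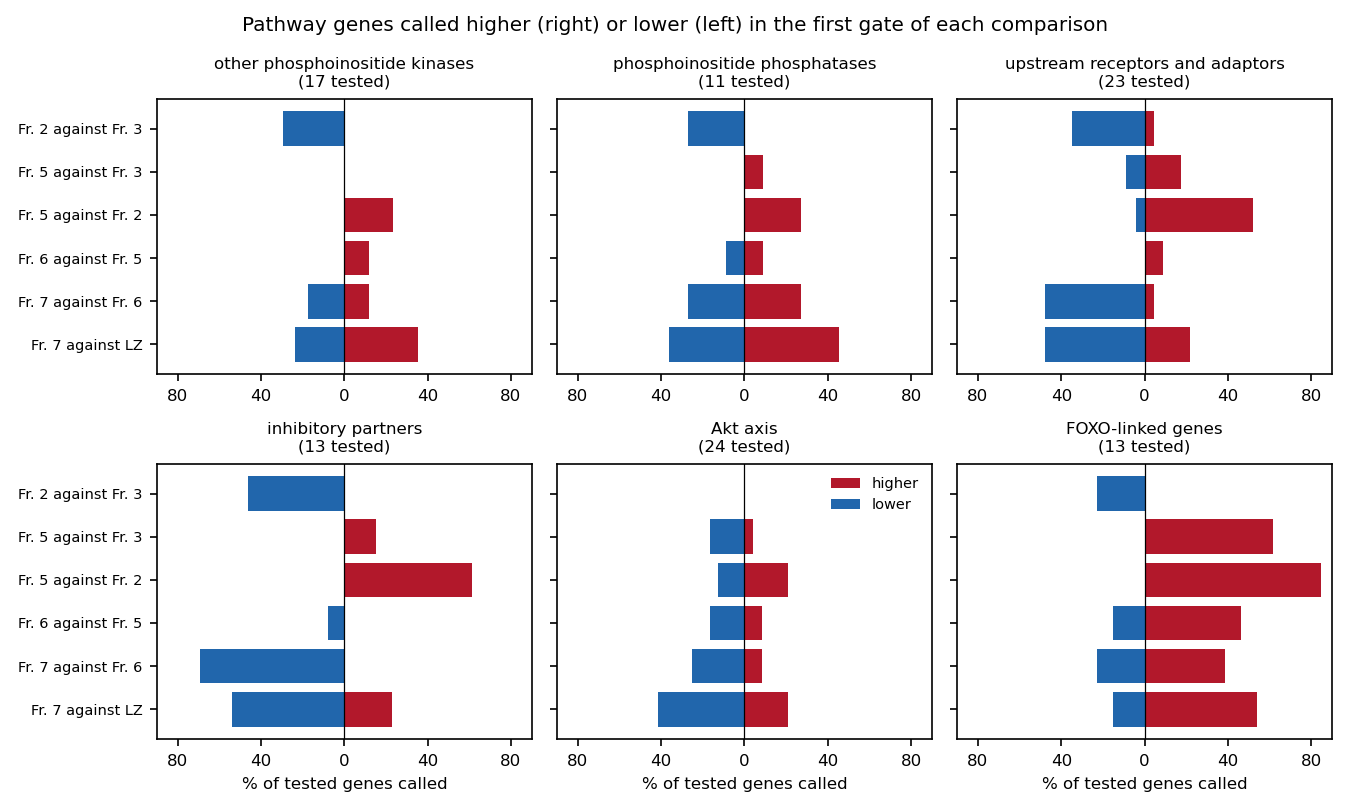
Percent of the tested genes of 6 pathway lists that were higher (bars to the right) or lower (bars to the left) at an adjusted p under 0.05 in each of the 6 comparisons, with the number tested in each panel title. The bars stand for 0 higher and 6 lower of 13 inhibitory partners in Fraction 2 against Fraction 3, and for 8 higher and 0 lower of 13 FOXO-linked genes in Fraction 5 against Fraction 3.

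The genes most like each of the 9 were found by Pearson correlation of log2(FPKM + 1) over the 16 libraries, among 8661 tested genes whose highest gate mean reached 5 FPKM. The 16 libraries share 6 gates, so these values mostly describe differences between gates, and no test was made. Pik3r5 was most like Ckap4 (0.996), Itga4 (0.994) and Cd97 (0.994). Pik3ap1 was most like Parp8 (0.992), Syvn1 (0.989) and Laptm5 (0.987), and Pik3cg most like Gga2 (0.986), Gsn (0.977) and Txndc16 (0.975). Pik3cb was most like Dnajb11 (0.964), Hmgcs1 (0.955) and Cyp51 (0.951). Pik3ip1 was most like Pisd-ps2 (0.981), Inpp5d like Ogfrl1 (0.987), Pik3cd like Stk40 (0.978) and Pik3r1 like Ppp3ca (0.954). Pik3ca had the lowest top value, 0.812 with Cep110. Among the 9 genes themselves, Pik3cd followed Pik3cg (0.971) and Pik3ap1 (0.949), and Pik3ip1 ran against Pik3cb (-0.92).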

How the data were processed

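Messenger RNA was measured in 16 libraries of sorted mouse B cells. Per the labels' protocols, RNA was taken with TRIzol from small sorted pools and made into libraries with a NEBNext Ultra kit, which does not mark the strand. Per the submitters' processing notes, the tools were TopHat2 2.0.8 and Cufflinks 2.1.1 and the build was mm9. The deposited table holds the authors' FPKM (fragments scaled to transcript length and library size) for 23234 named genes, and 1 row without a name was left out.

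FPKM are not counts, so no count model was used. The test took the 11266 genes that reached 1 FPKM in 2 or more libraries. limma 3.58.1 in R 4.3.3 fitted log2(FPKM + 1) with 6 gate means over all 16 libraries and a trend of variance on level. P-values were adjusted by the Benjamini-Hochberg method within each comparison over all tested genes, with a threshold of 0.05. Differences on this scale understate the change of genes near or under 1 FPKM.

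Alternatives were a pseudocount of 0.1, no filter, a filter of 5 FPKM, quantile and median-ratio scaling, array weights, a replicate block, fits to the compared gates alone, and each library left out. One more alternative, without Fraction 7 libraries 2 and 3, was chosen after seeing the data. The 9 genes, the pathway lists and the markers were chosen with earlier results of these data known. The named pathway genes are up to 3 of each list per comparison, by smallest adjusted p, and some of these are not reported here. Listed Hras was found as Hras1, and marker Jchain as Igj. Relative depth was read from the steps of low values, and the number of reads is unknown. Promoter windows come from RefSeq (GRCm38.p6), whose coordinates are not those of mm9.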

Additional observations from a re-analysis of the deposited data

How the results depend on the processing

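Of 26 calls on the 9 genes, 20 passed in every alternative run and 6 did not in at least 1. These 6 are Pik3r5 in Fraction 5 against Fraction 3, Pik3cb and Pik3ap1 in Fraction 5 against Fraction 2, Inpp5d in Fraction 7 against Fraction 6, and Pik3cd and Inpp5d in Fraction 7 against LZ, with their values given beside each result. Of 28 differences that did not pass, 10 were unmoved. A replicate block gave 2 calls on the 9 genes in Fraction 2 against Fraction 3, as without it, and changed no other call. Deviations from the gate means had a median r of -0.03 between libraries with the same number, with 5 of 36 pairs over 0.1. Between libraries with different numbers the median r was 0.01, with 9 of 70 pairs over 0.1. These medians over all tested genes showed no pairing by number, but they cannot exclude a pairing that touches some genes only. The 9 genes gave 5 calls under median-ratio scaling and 4 under quantile normalization in Fraction 2 against Fraction 3 (2 as reported), and 8 and 8 in Fraction 5 against Fraction 2 (5 as reported).

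All-gene calls in Fraction 2 against Fraction 3 (1760) were 1108 with the gates alone, 1121 with no filter, and 660 to 1411 with a library left out (710 and 660 without Fraction 2 libraries 1 and 2, 950 without Fraction 3 library 3). In Fraction 6 against Fraction 5 (1968) leaving out a library gave 1152 to 1817 (1152 and 1170 without Fraction 6 libraries 1 and 2). In Fraction 7 against Fraction 6 (2393) they were 1248 with the gates alone, 1589 without Fraction 7 libraries 2 and 3, and 1334 to 2491 with a library left out (1561 and 1334 without Fraction 6 libraries 1 and 2).

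Values that changed sign were of differences that had not passed, except Inpp5d in Fraction 7 against LZ (0.018 under quantile normalization). Under quantile normalization they were Inpp5d (0.16), Pik3ap1 (0.068) and Pik3cd (0.14) in Fraction 5 against Fraction 3, and Pik3cd (0.021) in Fraction 6 against Fraction 5. In Fraction 5 against Fraction 3, Pik3ca turned to -0.0013 with array weights, and in Fraction 7 against Fraction 6 it turned to 0.0061 without Fraction 7 libraries 2 and 3. With 1 library left out, Pik3ca ranged over 0 in Fraction 2 against Fraction 3 (-0.0302 to 0.0207), Fraction 5 against Fraction 2 (-0.0041 to 0.0309) and Fraction 5 against Fraction 3 (-0.015 to 0.0359), as did Pik3cd (-0.115 to 0.0078) and Pik3r1 (-0.0030 to 0.0659) in Fraction 5 against Fraction 3. The cause was not tested. With a pseudocount of 0.1, the changes in Fraction 5 were 2.15 (Pik3ip1), 1.27 (Pik3r5) and -0.78 (Pik3cb) against Fraction 2, and 0.80 (Pik3r5) against Fraction 3. The filter of 5 FPKM leaves out Pik3cb. Depth limits most the genes near 1 FPKM, Pik3cb, Pik3r5 and Pik3ip1 in the light zone, where the number of reads is unknown and no counting interval can be given.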
